A study of Mus musculus with 6 samples.

Results

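The genes described here encode the machinery that sorts membrane proteins into the small vesicles inside endosomes, and the proteins that carry such vesicles to the cell surface for release as exosomes. The 40 genes were taken by name and fall into the ESCRT complexes (21 genes), the tetraspanins (5), Rab GTPases with an effector and SNARE proteins (9), and a sphingomyelinase, flotillins and LAMP proteins (5). All 40 have a row in the gene tables, which hold 55487 genes, and 39 of the 40 had enough reads to be tested, among 13296 tested genes. RNA was sequenced from primary mouse hepatocytes that were isolated, put in culture and given no treatment. The Alb/MDA-9 group holds 3 libraries of mice heterozygous for a transgene that makes human MDA-9/SDCBP, known too as syntenin, carrying a C-terminal HA tag. The transgene is driven by the promoter and an upstream enhancer of mouse albumin, which are active in hepatocytes. The WT group holds 3 libraries of littermates without the transgene. All mice were on the B6CBAF1 background, a cross of C57BL/6 and CBA mice, and ate regular chow; age and sex are not given in the labels. Libraries are numbered within a group, but no label says whether each had its own mouse or culture. The p-values therefore reflect how far these libraries vary, and some of that variation may be technical. Segments of either parental strain that a group happens to share, and a different make-up of cells in the cultures, cannot be told apart here from an effect of the transgene.

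Syntenin is a scaffold protein that binds the tails of syndecans and, through the accessory protein ALIX, the ESCRT machinery, a route by which vesicles bud into endosomes. In that machinery ESCRT-0 gathers ubiquitin-tagged cargo, ESCRT-I and ESCRT-II shape the bud, ESCRT-III filaments narrow its neck, and the VPS4 ATPases take the filaments apart. Tetraspanins are membrane proteins with 4 membrane-spanning segments that gather partner proteins into domains and are enriched in exosomes, while Rab GTPases and SNARE proteins move and fuse the endosome with the plasma membrane or the lysosome.

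Each library had 16403918 to 19046739 reads assigned to genes on their own strand. The first principal component (55.5% of the variance) parted the genotypes, and the second (16.98%) parted Alb/MDA-9 3 from the remaining 5 libraries. Hepatocyte identity was clear: all 9 hepatocyte markers were tested, and their summed level was 82067 to 96443 CPM (gene reads relative to the library total, corrected by TMM factors) in Alb/MDA-9 libraries and 77226 to 80512 CPM in WT libraries. Most of that sum was Alb, at 62996 ± 7569 CPM in Alb/MDA-9 and 56471 ± 2233 CPM in WT (SD, n = 3 each). Of the 9, Trf and Apob rose in Alb/MDA-9 (edgeR adjusted p = 0.000643 and 0.00999). The Apob call was lost without WT 2 and with library totals alone. Cps1 fell, at 88.3 ± 11.3 CPM in Alb/MDA-9 and 171 ± 5.86 CPM in WT (edgeR adjusted p = 2.5e-05). Of all tested genes 7.35% rose and 7.09% fell (adjusted p under 0.05). Markers of other liver cells were read at low levels, as given further on, and of 6 lymphocyte markers 0 passed the low-count filter, with 4 of them at 0 reads in every library. The transgene is human and reads were counted over mouse genes, so these counts do not check the genotype labels.

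Levels of the genes, compared per kilobase of exon (RPKM, the CPM divided by the length of all annotated exons in kilobases), spanned a wide range that both genotypes shared. The lysosomal membrane glycoprotein gene Lamp1 stood highest, at 297 ± 13.8 RPKM in Alb/MDA-9 and 288 ± 8.89 RPKM in WT (SD, n = 3 each). It was followed by the tetraspanin gene Cd81, at 209 ± 23.3 and 186 ± 4.86 RPKM in Alb/MDA-9 and WT, and by the ESCRT-III gene Chmp2a, at 155 ± 15.5 and 141 ± 18.9 RPKM. The late endosome gene Rab7 had 125 ± 13.3 RPKM in Alb/MDA-9 and 106 ± 5.95 in WT, and the ESCRT-III gene Chmp4b 110 ± 2.54 and 104 ± 8.99. Values of Rab7 overlapped with those of Chmp4b within each genotype, so these genes are not ranked against each other. At the low end stood Rab27b, Rab27a, Sytl4 and Vps25, each under 1 RPKM in both groups, whereas 36 of the 39 tested genes had over 10 CPM in every library. The exon union counts rarely used exons too, so genes with long annotated exons are placed low by this measure.

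**Figure D1:**
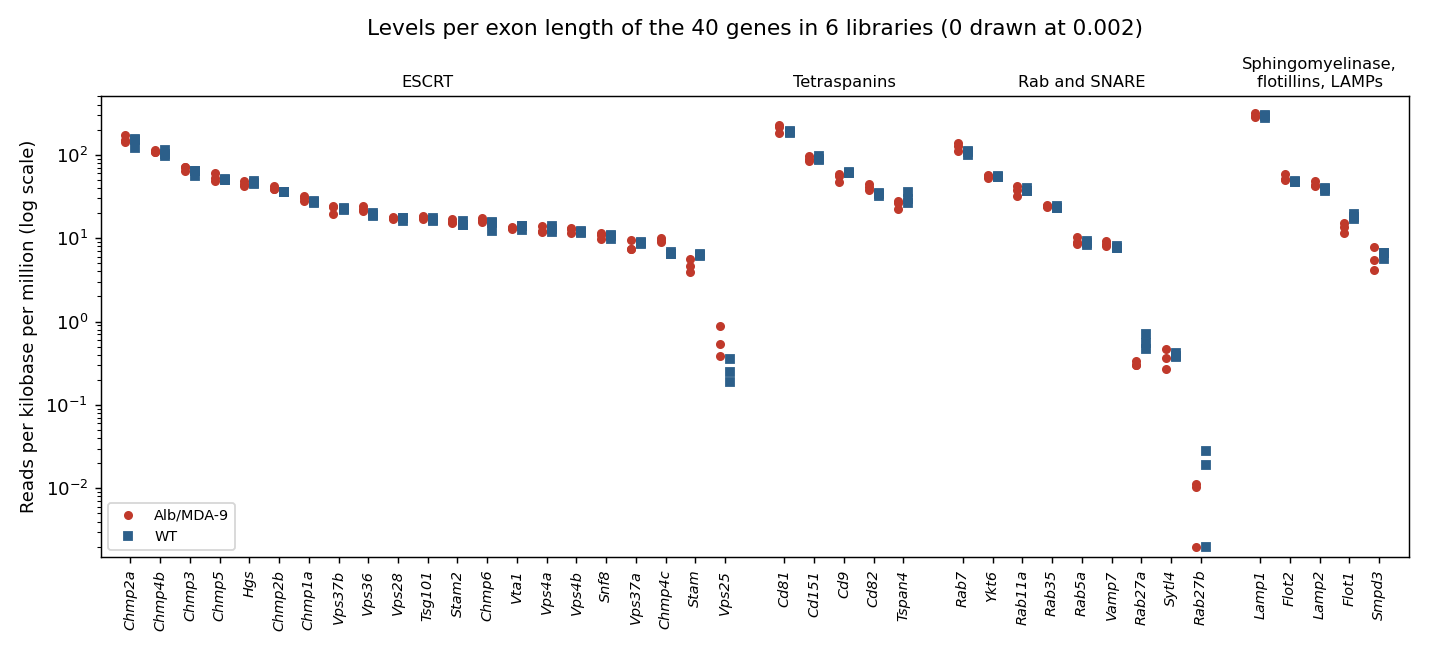
RPKM in each library (log scale) of the 40 genes, ordered within each class by their mean; red circles are Alb/MDA-9 and blue squares WT libraries, and a value of 0 is drawn at 0.002. Lamp1 (297 and 288 RPKM in Alb/MDA-9 and WT) and Cd81 (209 and 186 RPKM) lie highest, and Vps25, Rab27a, Sytl4 and Rab27b lie below 1.

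Most of these genes had nearly the same level in both genotypes. Of the 39 tested, 2 rose in Alb/MDA-9, the ESCRT-III gene Chmp4c and the tetraspanin gene Cd82, and 2 fell, the ESCRT-0 gene Stam and the flotillin gene Flot1 (adjusted p under 0.05 in edgeR's quasi-likelihood test, with the Benjamini-Hochberg method). That is 10.3% of the tested members, beside 14.4% of all tested genes, of which 7.35% were higher and 7.09% lower. Groups did not overlap for 13 of the 39 members, beside 33.6% of all genes. The median log2 change (Alb/MDA-9 over WT) was 0.07 over the members and -0.0015 over all genes, and 32 of the 39 members, against 63.0% of all genes, lay within 0.25 of 0 on the log2 scale. Members were also measured more closely than most genes, with a median SE of 0.08 against 0.12. The 95% interval lay inside a 1.5-fold change in either direction for 33 of the 39, and reached beyond it for Stam, Vps25, Chmp4c, Rab27a, Sytl4 and Flot1. The number of called members was 4 with the libraries as given and 9 without Alb/MDA-9 3, where 17.4% of all genes were called. It was 2 without Alb/MDA-9 2, WT 1 or WT 3, where 8.25%, 8.65% and 9.51% of all genes were called, and 1 without WT 2, where 7.53% were.

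**Figure D2:**
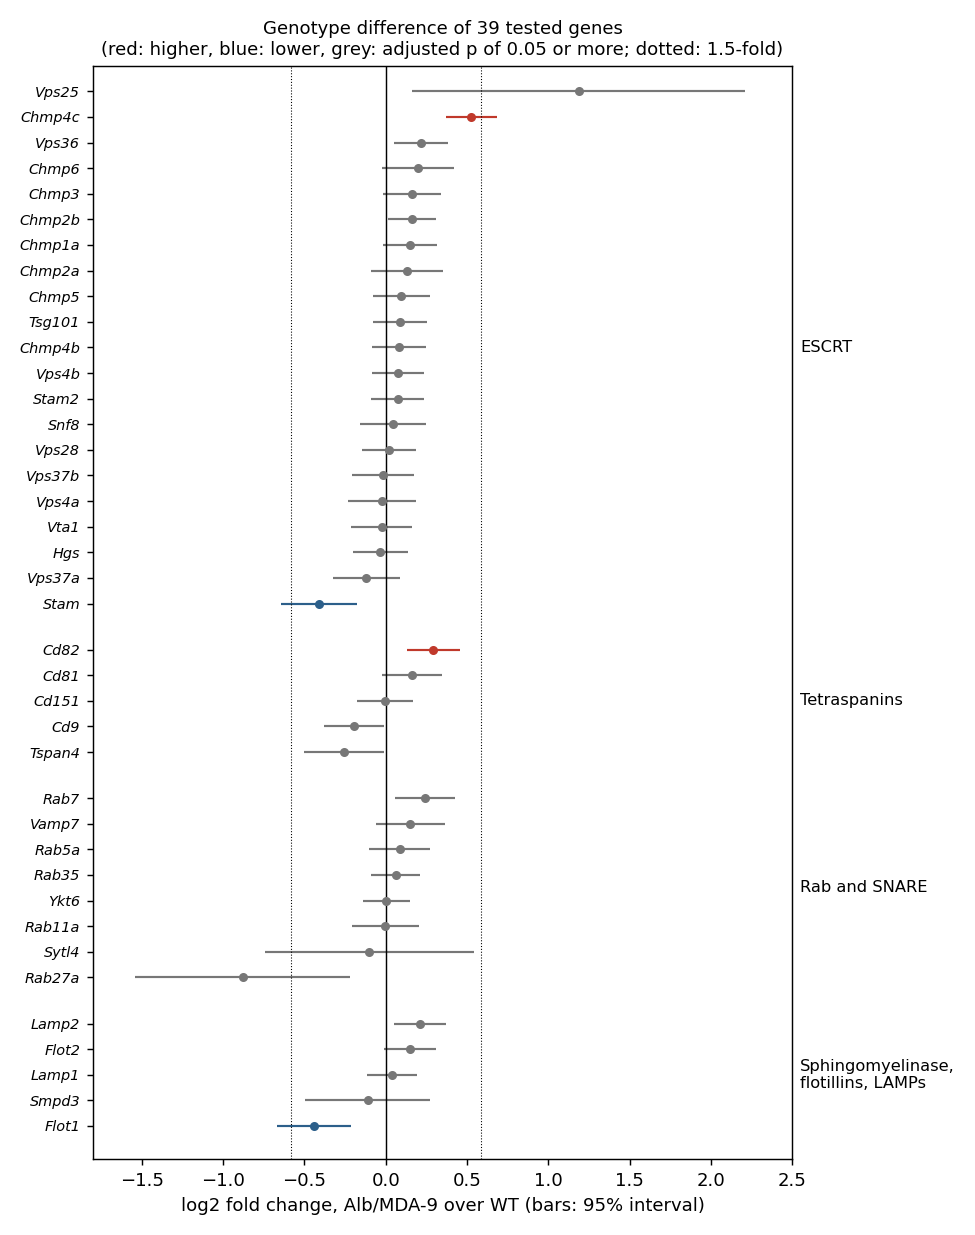
The log2 fold change, Alb/MDA-9 over WT, of the 39 tested genes with its 95% interval, by class; red points were called higher, blue points lower, grey points were not called, and dotted lines mark a 1.5-fold change. Only Chmp4c, Cd82, Stam and Flot1 are coloured, and the wide intervals of Vps25, Rab27a and Sytl4 belong to genes of few reads.

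ESCRT-0 is a complex of HRS, encoded by Hgs, with STAM1 or STAM2, encoded by Stam and Stam2, and all of them bind ubiquitin. Stam fell in Alb/MDA-9. It had 46.8, 33.3 and 38.8 CPM in Alb/MDA-9 1 to 3, against 54.6, 52.4 and 51.1 CPM in WT 1 to 3. Every Alb/MDA-9 library lay below every WT library, with Alb/MDA-9 2 lowest (log2 change -0.41, SE 0.11, edgeR adjusted p = 0.0235). The call was lost without Alb/MDA-9 2 (adjusted p = 0.0932) and without WT 1, 2 or 3 (edgeR adjusted p = 0.0858, 0.0773 and 0.0528), while the log2 change then lay between -0.43 and -0.30. Stam2 had 101, 94.4 and 91.7 CPM in the Alb/MDA-9 libraries and 87.5, 87.6 and 97.7 CPM in WT, groups that overlapped (log2 change 0.07, SE 0.07, edgeR adjusted p = 0.566). Hgs, at 125 to 146 CPM in Alb/MDA-9 and 131 to 146 CPM in WT, also overlapped between the groups (log2 change -0.03, SE 0.08).

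The promoters of Stam and Stam2 are shown because these paralogues differed in their call. RefSeq on GRCm38.p6 lists, from 250 bases before to 50 bases after the transcription start, chr2:14073850-14074149 on the plus strand for Stam and chr2:52742100-52742399 on the minus strand for Stam2. They were searched on both strands for the E-box CACGTG, the AP-1 motif TGANTCA, the GC box GGGCGG and the NF-kB consensus, which occur in 7.15%, 7.81%, 35.7% and 4.51% of 32851 listed promoters. A base could count toward more than 1 motif. Matches are printed in capitals, and neither sequence holds any.
Stam: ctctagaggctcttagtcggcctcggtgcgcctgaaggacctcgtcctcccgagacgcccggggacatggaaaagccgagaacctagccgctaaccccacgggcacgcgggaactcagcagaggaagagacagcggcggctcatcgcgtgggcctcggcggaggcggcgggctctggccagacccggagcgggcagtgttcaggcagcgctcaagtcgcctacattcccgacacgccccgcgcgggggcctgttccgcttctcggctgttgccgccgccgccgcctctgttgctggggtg
Stam2: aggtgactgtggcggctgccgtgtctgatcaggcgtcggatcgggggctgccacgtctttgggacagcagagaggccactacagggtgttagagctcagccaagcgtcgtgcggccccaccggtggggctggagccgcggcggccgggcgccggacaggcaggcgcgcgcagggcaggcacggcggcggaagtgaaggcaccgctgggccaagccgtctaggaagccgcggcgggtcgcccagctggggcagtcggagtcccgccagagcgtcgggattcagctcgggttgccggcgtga
Both are rich in the dinucleotide CG, with 35 each, where the median of all promoters is 7 and that of the 30 members with a listed promoter is 21. GC boxes were found in 20 of these 30 promoters, E-boxes in 2 (Lamp1 and Rab5a), and AP-1 and NF-kB motifs in 0. Of the 4 changed genes, Stam and Cd82 have a listed promoter.

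The ESCRT-I genes did not pass the test. Tsg101, whose product binds ubiquitin and short motifs in cargo and viral proteins, had 45.9 to 50.3 CPM in Alb/MDA-9 and 43.3 to 47.7 CPM in WT. Vps28, the subunit that contacts ESCRT-II, had 38.97 to 40.9 CPM in Alb/MDA-9 and 37.2 to 40.4 CPM in WT. Vps37a and Vps37b encode alternative versions of the same subunit. Vps37a had 60.2, 47.6 and 47.2 CPM in the Alb/MDA-9 libraries and 56.4, 57.1 and 54.8 CPM in WT. Vps37b had 66.0, 54.2 and 67.3 CPM in the Alb/MDA-9 libraries and 61.5, 64.8 and 63.2 CPM in WT. The groups overlapped for all 4, with log2 changes of -0.12 to 0.09 and SEs of 0.08 to 0.10. Exons of Hip1r cover 32.9% of Vps37b on the opposite strand, whose reads the strand-specific counts leave out.

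Nor did the ESCRT-II genes pass. Vps36, which binds ubiquitin and endosomal lipid, had 77.7 to 89.3 CPM in Alb/MDA-9 and 68.8 to 74.8 CPM in WT. These groups did not overlap (log2 change 0.22, SE 0.08, edgeR adjusted p = 0.0763), and voom with quality weights called the gene higher (limma adjusted p = 0.0383). Snf8 had 26.5 to 30.9 CPM in Alb/MDA-9 and 26.1 to 29.02 CPM in WT. Vps25 was read far less than its partner subunits, with 16, 11 and 24 reads in Alb/MDA-9 and 8, 6 and 10 reads in WT (log2 change 1.19, SE 0.47, edgeR adjusted p = 0.120). Exons of Ramp2 on the same strand cover 67.2% of its exon bases, and reads there are not counted for either gene, so its counts miss much of its transcript.

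ESCRT-III held the clearest difference. Chmp4c encodes a form of CHMP4, the main filament subunit, and is known in human cells for delaying the final cut of cell division. It had 95.1, 100 and 91.2 CPM in Alb/MDA-9 1 to 3, against 64.7, 64.7 and 69.4 CPM in WT 1 to 3. The groups lay far apart compared with their spread, at 95.6 ± 4.63 CPM in Alb/MDA-9 and 66.3 ± 2.69 CPM in WT (SD, n = 3 each; log2 change 0.53, SE 0.07, edgeR adjusted p = 0.000424). The fold change was 1.44 with a 95% interval of 1.29 to 1.61, and Chmp4c was the only member called in all 15 alternative settings (adjusted p of at most 0.00533). The gene (ENSMUSG00000027536) lies on chromosome 3 from 10366907 to 10428856 on GRCm38, and within 1 Mb of it 1 of 9 other tested genes was called, the fatty acid binding protein gene Fabp5.

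Chmp4b, the more abundant CHMP4 gene per kilobase (110 and 104 RPKM in Alb/MDA-9 and WT, against 9.47 and 6.57 RPKM for Chmp4c), did not pass. It had 229, 221 and 220 CPM in the Alb/MDA-9 libraries and 194, 230 and 208 CPM in WT, and the groups overlapped (log2 change 0.08, SE 0.08, edgeR adjusted p = 0.513). Annotated exons cover 10087 bases of Chmp4c and 2027 bases of Chmp4b, so the gap between these genes is much smaller in CPM. Chmp2a and Chmp2b encode late-joining subunits that recruit VPS4. Chmp2a had 176, 199 and 164 CPM in the Alb/MDA-9 libraries and 139, 175 and 179 CPM in WT. Chmp2b had 80.9, 75.5 and 75.5 CPM in the Alb/MDA-9 libraries and 69.5, 69.2 and 68.6 CPM in WT. Its groups did not overlap, by a small margin in size (log2 change 0.16, SE 0.07, edgeR adjusted p = 0.143). The other subunits, Chmp3, Chmp6, which links ESCRT-II to the filament, Chmp1a and Chmp5, overlapped between groups, with log2 changes of 0.10 to 0.20 and adjusted p of 0.212 to 0.474. All 8 ESCRT-III log2 changes were above 0 with TMM factors (median 0.16), and 6 of 8 were with library totals alone, a scaling that puts the median of all genes at -0.11.

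The genes for filament disassembly were close to equal. VPS4A and VPS4B are ATPases, and VTA1 is their activator. Vps4a had 30.7, 30.1 and 35.2 CPM in the Alb/MDA-9 libraries and 35.0, 32.4 and 29.9 CPM in WT (95% interval of the fold 0.854 to 1.14). Vps4b had 117, 113 and 101 CPM in the Alb/MDA-9 libraries and 105, 108 and 102 CPM in WT (95% interval 0.943 to 1.18). Vta1 had 28.9 to 31.01 CPM in Alb/MDA-9 and 28.6 to 31.8 CPM in WT. The groups overlapped for each of the 3.

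**Figure D3:**
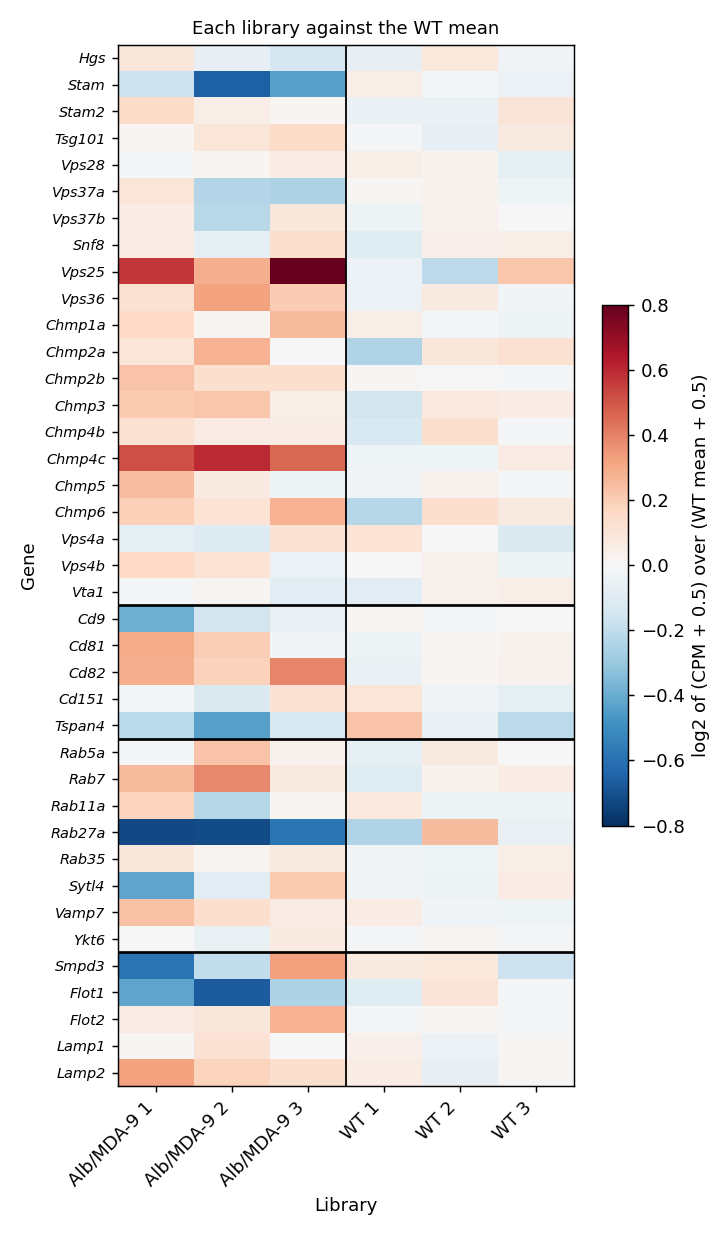
The log2 ratio of each library's CPM to the WT mean (0.5 added to both) for the 39 tested genes, from blue (lower) to red (higher), with Alb/MDA-9 libraries left and WT libraries right; horizontal lines part the ESCRT genes, tetraspanins, Rab and SNARE genes, and the sphingomyelinase, flotillin and LAMP genes. Chmp4c is red and Rab27a blue in all 3 Alb/MDA-9 libraries, while Smpd3 is blue in Alb/MDA-9 1 and red in Alb/MDA-9 3.

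Of the 5 tetraspanin genes, Cd82 rose and the others did not pass. CD82 is known as a suppressor of metastasis in human tumours. It had 124, 115 and 133 CPM in Alb/MDA-9 1 to 3, against 97.5, 102 and 104 CPM in WT 1 to 3. Every Alb/MDA-9 library lay above every WT library, with Alb/MDA-9 3 highest (log2 change 0.29, SE 0.07, edgeR adjusted p = 0.0204, fold 1.22, 95% interval 1.09 to 1.37). The call was lost without WT 1, 2 or 3 (edgeR adjusted p = 0.0695, 0.0788 and 0.0530) and with library totals alone (log2 change 0.19, edgeR adjusted p = 0.127). RefSeq lists 4 starts for Cd82; the promoter nearest the annotated 5′ end, chr2:93462901-93463200 on the minus strand of GRCm38.p6, is shown because it belongs to the changed tetraspanin, with its 2 GC boxes in capitals.
Cd82: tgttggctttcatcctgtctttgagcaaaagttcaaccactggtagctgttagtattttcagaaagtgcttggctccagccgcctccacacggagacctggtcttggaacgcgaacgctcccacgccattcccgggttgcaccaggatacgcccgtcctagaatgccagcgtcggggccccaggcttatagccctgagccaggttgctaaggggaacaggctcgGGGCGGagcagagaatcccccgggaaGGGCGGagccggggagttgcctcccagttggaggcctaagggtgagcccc
It holds no E-box, AP-1 or NF-kB match.

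Cd81 and Cd9 encode closely related tetraspanins found on exosomes, and CD81 also serves hepatitis C virus in human and malaria sporozoites in mouse hepatocytes. Cd81 had 661, 615 and 529 CPM in the Alb/MDA-9 libraries and 521, 542 and 548 CPM in WT. Alb/MDA-9 1 and 2 lay above every WT library and Alb/MDA-9 3 lay within them (log2 change 0.16, SE 0.08, edgeR adjusted p = 0.231). Without Alb/MDA-9 3 the gene was called higher (log2 change 0.25, edgeR adjusted p = 0.0160). Cd9 had 95.4, 113 and 120 CPM in Alb/MDA-9, all below the 126, 124 and 125 CPM of WT (log2 change -0.19, SE 0.08, edgeR adjusted p = 0.157). It was called lower without Alb/MDA-9 3 (log2 change -0.27, edgeR adjusted p = 0.0327) and with library totals alone (log2 change -0.30, edgeR adjusted p = 0.0445). Cd151, whose product binds laminin-binding integrins, had 246, 229 and 268 CPM in the Alb/MDA-9 libraries and 265, 244 and 235 CPM in WT, with a 95% interval of the fold of 0.886 to 1.12. Tspan4, known for its part in migrasomes, had 48.9 to 60.9 CPM in Alb/MDA-9 and 57.4 to 78.0 CPM in WT (log2 change -0.26, SE 0.11, edgeR adjusted p = 0.161), and was called lower without a low-count filter (edgeR adjusted p = 0.0325, where 9.68% of genes were called).

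Of the 9 Rab, effector and SNARE genes, 8 were tested and 0 passed, and DESeq2 also called 0 of them. Of all tested genes edgeR called 14.4% and DESeq2 14.6%, so 0 of 8 says little about this class. Rab7 and Rab27a had the lowest adjusted p of the 8. Rab7, which directs late endosomes to lysosomes, had 328, 360 and 290 CPM in the Alb/MDA-9 libraries and 258, 281 and 288 CPM in WT. The groups did not overlap, though Alb/MDA-9 3 lay close to WT 3 (log2 change 0.24, SE 0.09, edgeR adjusted p = 0.0813). Rab7 was called higher without Alb/MDA-9 3 (log2 change 0.32, edgeR adjusted p = 0.00637), without a low-count filter (edgeR adjusted p = 0.0398) and by voom with quality weights (limma adjusted p = 0.0148, where 19.5% of genes were called). Rab5a of early endosomes, Rab11a of recycling endosomes and Rab35, all linked to exosome release in cultured cells, overlapped between groups, with log2 changes of -0.0026 to 0.09 and adjusted p of 0.558 to 0.991.

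RAB27A and RAB27B dock vesicle-laden endosomes at the plasma membrane in human cell lines, with SYTL4 as an effector, and their genes were barely read in these hepatocytes. Rab27a had 21, 20 and 22 reads in Alb/MDA-9 1 to 3, or 1.16, 1.16 and 1.32 CPM, against 36, 54 and 36 reads in WT 1 to 3, or 1.82, 2.77 and 2.13 CPM. All Alb/MDA-9 libraries lay below all WT libraries (log2 change -0.88, SE 0.30, edgeR adjusted p = 0.0766), and the gene was called lower with library totals alone (edgeR adjusted p = 0.0468, where 16.1% of genes were called) and by voom with quality weights (limma adjusted p = 0.0431). In bulk samples fewer cells of a type and less RNA per cell cannot be told apart. Rab27b was not tested, with 2, 0 and 2 reads in Alb/MDA-9 and 6, 4 and 0 reads in WT; a count of 0 allows up to 0.175 CPM in Alb/MDA-9 2 and 0.177 CPM in WT 3, the level of 3 reads (counting error only). Sytl4 had 1.38 to 2.41 CPM in Alb/MDA-9 and 1.95 to 2.13 CPM in WT. Its 95% interval of the fold, 0.597 to 1.46, is wide at these read numbers, and any fold within it is compatible with these counts.

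The SNARE genes were measured closely. Ykt6, which acts in fusion of several membranes, had 164, 157 and 173 CPM in the Alb/MDA-9 libraries and 163, 166 and 163 CPM in WT. Its 95% interval of the fold was 0.907 to 1.11. Vamp7, a SNARE of late endosomes and lysosomes annotated on the unplaced scaffold GL456233.1, had 20.6 to 23.2 CPM in Alb/MDA-9 and 19.1 to 20.5 CPM in WT. These groups did not overlap, by a narrow gap (log2 change 0.15, SE 0.10, edgeR adjusted p = 0.344).

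Flotillins mark ordered membrane domains and are common exosome proteins. Flot1 fell, with 39.3, 33.2 and 44.6 CPM in Alb/MDA-9 1 to 3, against 49.4, 56.9 and 52.5 CPM in WT 1 to 3. Every Alb/MDA-9 library lay below every WT library, with Alb/MDA-9 2 lowest (log2 change -0.44, SE 0.10, edgeR adjusted p = 0.0141, fold 0.737, 95% interval 0.630 to 0.862). The call was lost without Alb/MDA-9 2 (edgeR adjusted p = 0.0614) and without WT 2 (edgeR adjusted p = 0.0787). Flot2, its partner in flotillin complexes, had 137, 140 and 159 CPM in the Alb/MDA-9 libraries and 130, 132 and 130 CPM in WT. These groups did not overlap either, and the difference pointed the other way without passing (log2 change 0.15, SE 0.07, edgeR adjusted p = 0.212). Flot1 (ENSMUSG00000059714) lies on chromosome 17 from 35823230 to 35832791 on GRCm38, inside the major histocompatibility complex. Within 1 Mb of it 17 of 72 other tested genes were called (23.6%, 8 higher and 9 lower), among them H2-D1, H2-Q5, H2-Q6 and H2-Q7, while 3 of 10 were called around Stam and 2 of 13 around Cd82; the part of position in these results was not tested.

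**Figure D4:**
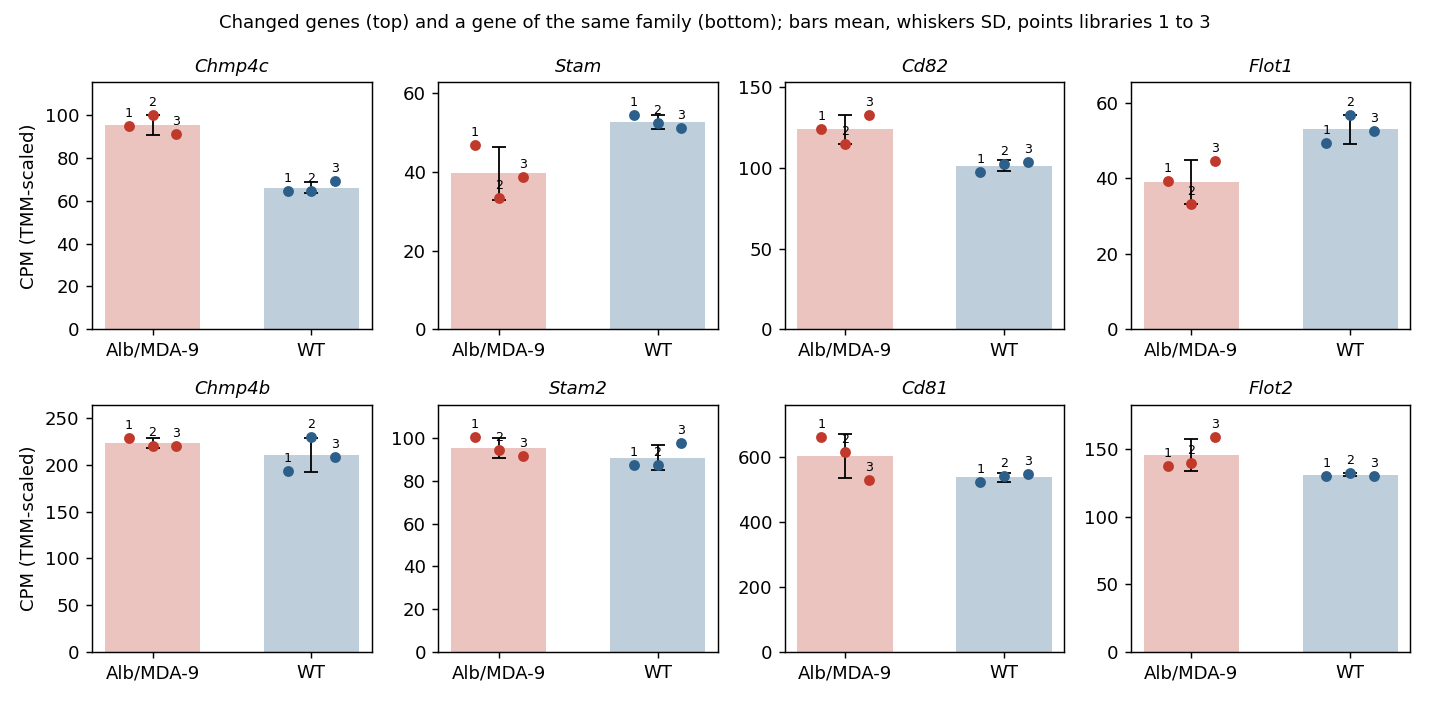
CPM in each library (points, numbered 1 to 3) with the mean (bars) and SD (whiskers) of Alb/MDA-9 (red) and WT (blue), for the 4 changed genes in the top row and a gene of the same family below each. The groups do not overlap for Chmp4c, Stam, Cd82 and Flot1, whereas they overlap for Chmp4b, Stam2 and Cd81, and Flot2 stands slightly higher in Alb/MDA-9.

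LAMP1 and LAMP2 are the main glycoproteins of the lysosome membrane. Lamp1 had 776, 837 and 770 CPM in the Alb/MDA-9 libraries and 792, 745 and 776 CPM in WT, and the 95% interval of its fold was 0.926 to 1.14. Lamp2 had 465, 420 and 407 CPM in Alb/MDA-9, all above the 387, 355 and 374 CPM of WT (log2 change 0.21, SE 0.07, edgeR adjusted p = 0.0814). It was called higher without Alb/MDA-9 3 (edgeR adjusted p = 0.0221), by DESeq2 (adjusted p = 0.0495, where 14.6% of genes were called) and by voom with quality weights (limma adjusted p = 0.0172). Smpd3 encodes a neutral sphingomyelinase that makes the ceramide used in an ESCRT-independent route of vesicle budding. It had 21.6, 28.6 and 41.3 CPM in Alb/MDA-9 1 to 3 and 34.5, 34.9 and 29.2 CPM in WT 1 to 3. Alb/MDA-9 3 was the highest of all 6 libraries and Alb/MDA-9 1 the lowest (log2 change -0.11, SE 0.18, edgeR adjusted p = 0.731), and without Alb/MDA-9 3 the gene was called lower (log2 change -0.39, edgeR adjusted p = 0.0367).

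The promoter of Lamp1 is shown for its E-boxes, which form the core of the element read by TFEB and TFE3, transcription factors of lysosomal genes. Its RefSeq window, chr8:13158911-13159210 on the plus strand of GRCm38.p6, holds 4 of them, in capitals, a number found in 8 of the 32851 listed promoters.
Lamp1: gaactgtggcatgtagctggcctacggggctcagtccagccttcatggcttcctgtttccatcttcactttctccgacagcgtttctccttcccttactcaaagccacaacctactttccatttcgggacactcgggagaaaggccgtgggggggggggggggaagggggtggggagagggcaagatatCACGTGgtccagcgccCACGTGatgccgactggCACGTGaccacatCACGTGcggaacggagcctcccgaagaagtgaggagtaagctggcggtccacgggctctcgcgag
The promoter listed for Lamp2 holds 0 E-boxes and 2 GC boxes.

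Ratios of reads between related genes do not depend on how libraries are scaled. Over 9 such pairs the log2 ratio was compared by an exact two-sided permutation test with p-values adjusted over the pairs; with 3 libraries against 3 the smallest p is 0.10, so no pair could pass. The log2 ratio of Flot1 to Flot2 was -1.803, -2.07 and -1.83 in Alb/MDA-9 and -1.40, -1.22 and -1.31 in WT, a difference of -0.59. That of Stam to Stam2 was -1.28 ± 0.20 in Alb/MDA-9 and -0.79 ± 0.13 in WT (SD, n = 3 each), a difference of -0.50, and that of Chmp4b to Chmp4c 1.23 ± 0.08 and 1.67 ± 0.14 in Alb/MDA-9 and WT, a difference of -0.44. Cd9 to Cd81 differed by -0.36 and Lamp1 to Lamp2 by -0.17. In these 5 pairs the groups did not overlap, each with the smallest exact permutation p of 0.10 (adjusted 0.18). Taken singly, 33.6% of all tested genes did not overlap, and no share was counted over other pairs. Stam, Chmp4c and Flot1 were already called in these same libraries, so the ratios that hold them are not separate support. The ratios of Vps37a to Vps37b, Chmp2a to Chmp2b and Vps4a to Vps4b overlapped between groups and differed by -0.11, -0.03 and -0.09, and that of Rab27a to Rab27b rests on too few reads to be read.

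**Figure D5:**
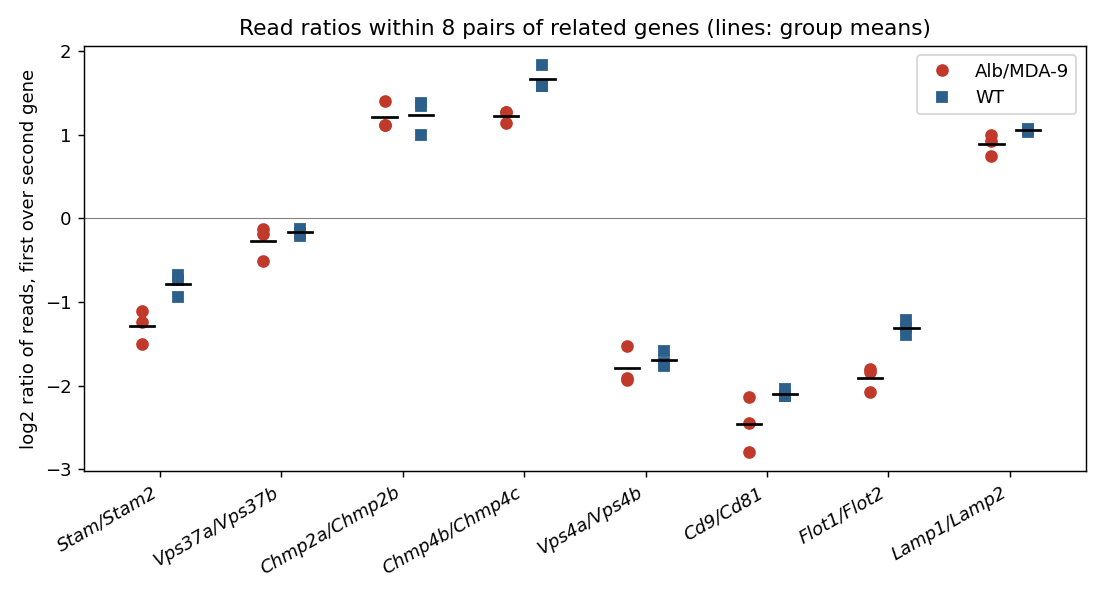
The log2 ratio of reads, first gene over second, in each library for 8 pairs of related genes (red circles Alb/MDA-9, blue squares WT, black lines group means). The groups part for Stam/Stam2, Chmp4b/Chmp4c, Cd9/Cd81, Flot1/Flot2 and Lamp1/Lamp2 (differences of -0.50, -0.44, -0.36, -0.59 and -0.17).

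Class medians lay close together in this comparison, where 14.4% of all tested genes were called. The ESCRT genes had a median log2 change of 0.08 (1 higher and 1 lower of 21 tested), the tetraspanins -0.0025 (1 higher of 5), the Rab and SNARE genes 0.03 (0 of 8) and the sphingomyelinase, flotillin and LAMP genes 0.04 (1 lower of 5), beside -0.0015 over all genes. The 21 ESCRT genes summed to 1832, 1777 and 1721 CPM in Alb/MDA-9 1 to 3 and 1585, 1720 and 1682 CPM in WT 1 to 3, so the lowest Alb/MDA-9 sum and the highest WT sum were nearly equal. The sums of the tetraspanins were 1111 to 1184 CPM in Alb/MDA-9 and 1069 to 1088 CPM in WT. Those of the Rab and SNARE genes were 717 to 760 and 672 to 696 CPM in Alb/MDA-9 and WT, and those of the last class 1421 to 1458 and 1324 to 1393 CPM. With TMM factors none of the 4 classes overlapped between groups, the ESCRT genes only by the narrow gap given above. All 4 overlapped with library totals alone, where the tetraspanins summed to 1066 to 1126 CPM in Alb/MDA-9 and 1103 to 1138 CPM in WT. The sums lean on abundant genes such as Cd81, Rab7 and Lamp1. With library totals alone all 4 medians lay below 0, at -0.11 to -0.02, beside -0.11 over all genes.

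The rest of the pathway was read from lists of further genes. Of 15 other ESCRT genes 14 were tested. Both edgeR and DESeq2 called 0 of them, and voom with quality weights called 1 higher. Of all tested genes these methods called 14.4%, 14.6% and 19.5%. Pdcd6ip, which encodes ALIX, the link between syntenin and ESCRT, had 509 ± 9.63 CPM in Alb/MDA-9 and 474 ± 12.5 CPM in WT (SD, n = 3 each; log2 change 0.10, SE 0.07, edgeR adjusted p = 0.339; chosen for its role after values were seen). Of 26 other tetraspanins 15 were tested, and 3 fell, beside 7.09% of all genes. Tspan8 fell to 1.91 ± 1.61 CPM in Alb/MDA-9, against 8.33 ± 1.22 CPM in WT (log2 change -2.13, SE 0.42, edgeR adjusted p = 0.00517). Its log2 change was -2.95 without Alb/MDA-9 3 and -3.02 by voom with quality weights. Tspan12, a partner of the Norrin receptor, fell to 93.0 ± 9.08 CPM, against 116.5 ± 9.96 CPM in WT (log2 change -0.33). The third, named here only because it completes the count, was the leukocyte tetraspanin gene Cd53, at 0.726 ± 0.232 CPM in Alb/MDA-9 and 1.78 ± 0.376 CPM in WT. That count was 1 without Alb/MDA-9 2, WT 1 or WT 2, and 2 without Alb/MDA-9 3 or WT 3. Cd63, the classic exosome tetraspanin gene, also chosen after its values were seen, had 91.5 ± 3.51 CPM in Alb/MDA-9 and 78.7 ± 3.62 CPM in WT and did not pass (log2 change 0.22, edgeR adjusted p = 0.0600).

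Of 36 further Rab, SNARE and release genes 33 were tested, and their median log2 change was 0.16. Among them 8 rose and 3 fell, beside 7.35% of all genes called higher and 7.09% lower. The RAB27 effector gene Sytl5 rose to 19.98 ± 3.53 CPM in Alb/MDA-9, against 11.1 ± 1.77 CPM in WT (log2 change 0.85, SE 0.16, edgeR adjusted p = 0.00313), and Ralb, which encodes a GTPase of exocytosis, to 96.8 ± 4.37 CPM, against 66.6 ± 11.6 CPM in WT (log2 change 0.54). The neutral sphingomyelinase gene Smpd2 rose to 11.8 ± 0.445 CPM, against 8.14 ± 0.452 CPM in WT. The 3 that fell, named here only to complete the count, were Rab4a, Vamp2 and Sytl1. Sytl1, of the same family as Sytl5, had 0.486 ± 0.166 CPM in Alb/MDA-9 and 1.44 ± 0.345 CPM in WT (log2 change -1.57). The calls for Sytl5 and Ralb held in all 15 alternative settings. The number of rises was 5 without Alb/MDA-9 1, 4 without Alb/MDA-9 2, WT 2 or WT 3, 3 without WT 1, and 4 with library totals alone or upper-quartile factors. The falls numbered 0 without Alb/MDA-9 1, Alb/MDA-9 2 or WT 1, and 1 without WT 2 or WT 3. Without Alb/MDA-9 1 or Alb/MDA-9 2, 12.9% and 8.25% of all genes were called in either direction. Without WT 1, WT 2 or WT 3 these shares were 8.65%, 7.53% and 9.51%, and with library totals alone the share was 16.1%. Of 23 lysosome genes 4 rose, beside 7.35% of all genes, none was called lower, and the median log2 change was 0.06. The autophagy receptor gene Sqstm1 had 1068 ± 6.47 CPM in Alb/MDA-9 and 866 ± 31.6 CPM in WT, the cholesterol carrier gene Npc2 119 ± 6.13 and 97.5 ± 7.12 CPM in Alb/MDA-9 and WT, and Tfe3, a regulator of lysosomal genes, 87.8 ± 7.45 and 73.4 ± 1.59 CPM. These lysosome calls depended on scaling, with 0 rises and 4 falls under library totals alone. The rises also numbered 0 without Alb/MDA-9 2 or WT 2, 1 without WT 1 and 2 without WT 3.

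Some markers of other liver cells also changed in these libraries, where 7.35% of all tested genes were called higher and 7.09% lower. Kupffer cells are the resident liver macrophages, and 9 of their 13 markers fell while 0 rose; their summed level was 242 to 396 CPM in Alb/MDA-9 and 420 to 433 CPM in WT. Of 10 tested endothelial markers 4 fell, with sums over the list of 162 to 174 CPM in Alb/MDA-9 and 218 to 233 CPM in WT. Of 12 stellate cell markers 5 fell, with sums of 179 to 190 CPM in Alb/MDA-9 and 245 to 254 CPM in WT. Without WT 1 or WT 2 the falling Kupffer markers numbered 6, and the falling stellate markers numbered 3, 2, 3 and 2 without Alb/MDA-9 2, WT 1, WT 2 and WT 3. Of 8 cholangiocyte and mesothelial markers 6 were tested, 3 rose and 2 fell, with sums of 251 to 361 CPM in Alb/MDA-9 and 60.0 to 66.8 CPM in WT. Most of the Alb/MDA-9 sum was Spp1, the osteopontin gene, at 171, 195 and 279 CPM in Alb/MDA-9 and 1.36, 0.768 and 0.768 CPM in WT, while Krt7 and the mesothelial gene Msln, named after their values were seen, fell. The part of other cells in the changes of Stam, Flot1, Cd82 and Chmp4c was not tested.

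Among the 6 libraries, Alb/MDA-9 3 was the highest for 14 and the lowest for 4 of the 39 tested members, beside 11 and 4 for Alb/MDA-9 1 and 7 and 7 for Alb/MDA-9 2, while WT 1 was the highest for 3 and the lowest for 12. These counts rest on TMM-scaled CPM and were not made over all genes, so they are not read as particular to the members. Without Alb/MDA-9 3, 9 members were called, beside 17.4% of all genes: Chmp4c, Cd82, Cd81, Rab7 and Lamp2 higher, and Stam, Flot1, Cd9 and Smpd3 lower. Its Kupffer marker sum, 242 CPM, was the lowest of all libraries, beside 396 and 374 CPM in Alb/MDA-9 1 and 2. Without Cd68, a macrophage lysosome gene that was not called, the other 12 Kupffer markers ran the other way within the group, at 105 CPM in Alb/MDA-9 3 and 74.7 and 90.1 CPM in Alb/MDA-9 1 and 2, all below the 149 to 158 CPM of WT. Cd68, named after its values were seen, had 137 CPM in Alb/MDA-9 3 and 322 and 284 CPM in Alb/MDA-9 1 and 2.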

How the data were processed

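The deposited tables hold counts of reads per gene, made by the authors with STAR 2.7.9a after trimming with Trim Galore 0.6.6 and quality checks with FastQC 0.11.2, per the submitters' processing notes, which also name edgeR 3.18.1, mm10 and GRCm38; the annotation release is not given in the sources used here. Per the labels, libraries were made with an Illumina TruSeq RNA kit and sequenced in repeated rounds. Strandedness is not stated there; the reverse-strand column held 96.9% to 97.2% of the reads of both strand columns, so its counts were used. Of 55487 gene IDs 55227 are in GENCODE M21 (GRCm38), which gave names, positions and exon lengths. All 40 genes matched by ID.

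Genes were tested across the whole table with edgeR 4.0.16 in R 4.3.3 (filterByExpr with a minimum count of 10, TMM factors, quasi-likelihood F test, Benjamini-Hochberg adjustment, 3 Alb/MDA-9 against 3 WT libraries, no covariates, 4 residual degrees of freedom). The procedure was tested on simulated data. The SE of a gene is its absolute log2 change divided by the square root of F. The 95% intervals use edgeR's total degrees of freedom, which add prior ones shared across genes to the 4 residual ones. CPM values use TMM-scaled totals, and a count of 0 was read as up to 3 reads. Alternatives used DESeq2 1.42.0 and limma 3.58.1 (voom). Pair ratios (0.5 reads added) were tested with SciPy 1.17.1. Values per library were given for called members, genes of 9 related pairs and the 2 members of each class with the highest RPKM. They were also given for some others whose call depended on a setting, chosen after their values were seen. Genes of the pathway, lysosome, hepatocyte, and cholangiocyte and mesothelial lists were named if called with a mean of at least 5 CPM. At most 3 per list were named, by size of change. Kupffer, endothelial and stellate markers were given as counts and sums. Alb, Pdcd6ip, Cd53, Cd63, Rab4a, Vamp2, Sytl1, Krt7, Msln and Cd68 were added after their values were seen. Transcripts were compared with BLAST+ 2.17.0 (at least 95% identity over 200 bases): Chmp4c, Stam, Flot1 and Cd82 had no near-identical copy. The genes, lists and tests were chosen with earlier results of these data known. Promoters are from RefSeq. Rab27b reads fell below the filter. No 2 libraries agreed within sampling noise.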

Additional observations from a re-analysis of the deposited data

How the results depend on the processing

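With library totals in place of TMM factors, 525 genes were called higher and 1622 lower, and of the 39 tested members 1 was called higher and 4 lower. The median log2 changes were then -0.0316 over the members, -0.0203 for ESCRT, -0.11 for the tetraspanins, -0.0699 for the Rab and SNARE genes and -0.0630 for the sphingomyelinase, flotillin and LAMP genes. Upper-quartile factors gave 0.0331 over the members, 0.0441 for ESCRT, -0.0060 for Rab and SNARE genes and 0.0021 for the last class. The Rab and SNARE median was -0.0038 without a low-count filter and 0.0588 with a minimum count of 50. Voom with quality weights called 8 members, 5 of them higher, beside 19.5% of all genes. Leaving out each library in turn gave 1018 to 2386 called genes (503 to 1178 higher, 515 to 1208 lower) and 1 to 9 called members (1 to 5 higher, 0 to 4 lower). Medians then lay between 0.0480 and 0.0799 over the members, 0.0398 and 0.0941 for ESCRT, -0.0648 and 0.0484 for the tetraspanins, whose sign changed, 0.0218 and 0.0659 for Rab and SNARE genes, and 0.00064 and 0.0876 for the last class. Called genes of the other pathway lists numbered 5 to 18 (18 with all libraries) and called markers of other cells 15 to 24 (23 with all libraries). Of the 21 tested genes of the naming rule, 13 kept their direction in every alternative run, Stam, Chmp4c, Cd82 and Flot1 among them. The other 8, none of them called, changed sign near 0. With library totals the log2 change was -0.03158 for Stam2, -0.02027 for Chmp4b, -0.02944 for Vps4b, -0.06297 for Lamp1 and -0.09787 for Ykt6. Ykt6 had -0.0342 with upper-quartile factors, -0.003794 without a low-count filter, -0.00974 with a minimum count of 50 and -0.0212 by voom. With reads of either strand Vps37b had 0.108 and Cd151 0.00219. Leaving out libraries gave -0.0734 to 0.0750 for Vps37b, -0.0966 to 0.0370 for Vps4a, -0.0648 to 0.0484 for Cd151 and -0.0310 to 0.0352 for Ykt6. Of all these values 272 kept direction and side of the threshold, 10 lost the call, 11 gained it and 21 changed sign; the cause was not tested.

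With the replicate number as a block 4 members were called, Stam, Chmp4c, Cd82 and Flot1, and 1601 genes in all. Deviations of same-numbered libraries from their group means correlated at -0.04, -8.7e-05 and -0.06, so the numbers were not taken as pairs. Depth limited Rab27a, Rab27b, Sytl4 and Vps25, which had at most 54 reads in any library.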
